A study of Mus musculus with 5 samples.

Results

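Stellate cells, pericytes and smooth muscle cells make up the contractile mesenchyme of the pancreas, and 10 genes that mark them were followed here in the neonatal pancreas of control and Pdx1cKO mice. The genes were chosen by name as known markers, and their values were read from every probe set that the platform annotation gives to a listed gene alone. Each of the 10 genes had 1 such probe set, out of 19938 genes measured. They fall into the PDGF receptors Pdgfra and Pdgfrb, the smooth muscle contractile genes Acta2, Actg2, Myh11, Tagln and Cnn1, the muscle intermediate filament gene Des, and the pericyte markers Rgs5 and Cspg4.

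Platelet-derived growth factors are secreted as dimers, many by epithelium and endothelium, and bind the receptor tyrosine kinases PDGFRA and PDGFRB on mesenchymal cells. PDGFRA marks fibroblast-like mesenchyme and PDGFRB marks pericytes, which wrap capillaries, and vascular smooth muscle. Smooth muscle contracts through smooth muscle actins and the myosin heavy chain MYH11, with transgelin and calponin bound to the actin filaments, and its genes are switched on by serum response factor with the co-activator myocardin at A/T-rich CArG boxes. Quiescent pancreatic stellate cells store vitamin A and contain desmin, and after injury they acquire alpha smooth muscle actin, the product of Acta2. The muscle layers of the gut wall are rich in the same contractile proteins.

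RNA of whole pancreas at postnatal day 1 was hybridised to 5 arrays, 1 per pancreas, from 2 control and 3 Pdx1cKO mice, which the series title places in the same litter. The Pdx1cKO mice were Elastase-Cre; Pdx1loxP/loxP, and the controls are labelled only as not recombined, so which of these alleles they carried is not stated in the labels or the methods. Elastase-Cre acts in exocrine cells, so the mesenchymal cells described here were not the target of the deletion. The values are array intensities on a linear scale that the authors had already normalized, and the number of mice limits the precision.

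The arrays differed in tissue content, and what part this had in the values of the 10 genes was not tested. Pdx1, the targeted gene, was at 67.9 and 113 in controls 1 and 2 and at 42.9 to 48.4 in the Pdx1cKO mice (limma adjusted p = 0.385). All 5 measured acinar and all 5 measured islet hormone genes lay below both controls in every Pdx1cKO mouse, against 11.7% of all genes. Control 2 carried stomach and intestinal transcripts: the median intensity of 10 stomach epithelium genes was 954 there and 49.1 to 65.8 on the other 4 arrays. Pdx1cKO 1 carried skeletal muscle transcripts, with a median over 9 genes of 576 against 108 and 166 in Pdx1cKO 2 and 3 and 53.8 to 57.7 in the controls. Transcripts of liver were higher in all 3 Pdx1cKO mice, with medians over 7 genes of 2666, 3439 and 851 in Pdx1cKO 1, 2 and 3 and 184 and 209 in the controls. Xist was high in Pdx1cKO 1 and 2 and low in Pdx1cKO 3 and both controls, so sex differed in makeup between the groups.

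None of the 10 genes passed an adjusted p of 0.05 in limma's test over all genes, in either direction. Neither did any other gene, so the background for that threshold was 0.00% in each direction. At an unadjusted p under 0.05, 2 of the 10 were higher in Pdx1cKO, Pdgfrb and Cspg4, against 5.29% of all genes, and 0 of the 10 were lower, against 5.04%. The methods' t-test gave the same pair at an unadjusted p and 0 of the 10 after adjustment. All 3 Pdx1cKO arrays lay above both controls for Pdgfra, Pdgfrb and Cspg4, 3 of the 10, against 12.0% of all genes. For 0 of the 10 did they all lie below, against 11.7%. The median log2 difference of the 10 genes was 0.02, that of all genes was 0.00, and an exact permutation of 2 against 3 samples cannot give a p below 0.1.

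**Figure D1:**
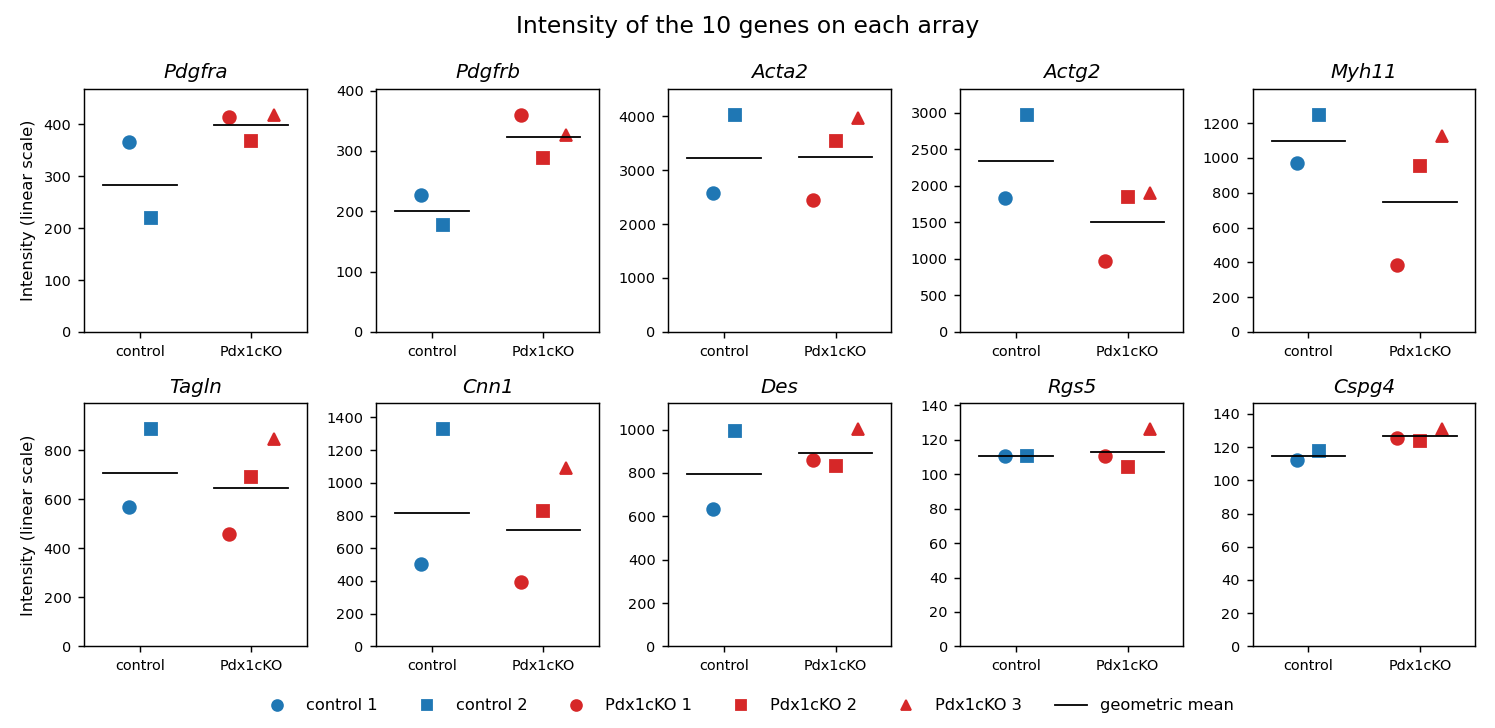
Intensity (linear scale, from 0) of each of the 10 genes on each of the 5 arrays, with controls in blue, Pdx1cKO in red, the symbol giving the replicate and black lines the geometric means. Pdgfra, Pdgfrb and Cspg4 show all 3 Pdx1cKO arrays above both controls, and in Acta2, Actg2, Myh11, Tagln and Cnn1 control 2 is the highest and Pdx1cKO 1 the lowest array.

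The clearest separation between the groups was in Pdgfrb, the receptor of pericytes and vascular smooth muscle (probe set 10456046). Its intensity was 226 and 177 in controls 1 and 2 and 360, 288 and 327 in Pdx1cKO 1, 2 and 3. Every Pdx1cKO value was above both controls, and the lowest of them exceeded the higher control. The log2 fold change was 0.69 (standard error 0.162, 95% confidence interval 0.23 to 1.16), or 1.62-fold, with a limma adjusted p of 0.324 and an unadjusted p of 0.0153. The exact two-sided permutation p was 0.1, the smallest these samples allow. In bulk tissue, more cells of a type, more RNA per cell and a larger share of the RNA where other cells are fewer cannot be told apart.

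The gap held against each control alone. The Pdx1cKO mean of Pdgfrb was 0.52 on the log2 scale above control 1, which lacked stomach transcripts, and 0.87 above control 2. Both controls had lower skeletal muscle and liver medians than every Pdx1cKO mouse. What part mesenchyme or vessels of such tissue had in the Pdgfrb values was not tested. With a sex covariate, added after the data were seen, the difference was 0.71 with a limma unadjusted p of 0.0827, so Pdgfrb no longer lay under 0.05. That fit rests on Pdx1cKO 3 alone against the controls, because Xist was high in Pdx1cKO 1 and 2. The 2 of the 10 genes under 0.05 in it were Cspg4 (limma unadjusted p = 0.0282) and Rgs5 (limma unadjusted p = 0.0364). Rgs5 had the same value, 110.3, in both controls, so its p is no measure of the spread between mice. On the log2 scale the SD was 0.249 between controls (n = 2) and 0.162 between mutants (n = 3).

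Pdgfra, the receptor of fibroblast-like mesenchyme (probe set 10522503), had intensities of 366 and 219 in controls 1 and 2 and 414, 368 and 418 in Pdx1cKO 1, 2 and 3. The groups did not overlap, but control 1 and Pdx1cKO 2 were nearly level, and the low value of control 2 set most of the difference. The log2 fold change was 0.50 (standard error 0.260, 95% confidence interval -0.25 to 1.24, limma adjusted p = 0.515). Against control 1 alone the difference was 0.13, and against control 2 alone it was 0.87. Without control 1, Pdgfra passed limma's test at an adjusted p of 0.0493, as did 17.0% of all genes, while without control 2 its adjusted p was 0.666. In either of these fits the remaining control lends no spread of its own, so the spread of the mutants stands in for it. Without control 1 that threshold took 1 of the 10 genes, and without control 2 it took 0 of them, against 15.4% of all genes.

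Of the ligands of these receptors, Pdgfc was the highest in Pdx1cKO relative to control. Pdgfc, which acts mainly through PDGFRA, was at 348 and 231 in controls 1 and 2 and at 435, 433 and 533 in Pdx1cKO 1, 2 and 3, with a log2 fold change of 0.71 and a standard error of 0.230 (limma adjusted p = 0.446). All 3 mutant arrays were above both controls, as for 12.0% of all genes. As for Pdgfra, control 2 was the lowest array. Pdgfa, an epithelial ligand of PDGFRA, was at 245 and 202 on the control arrays against 166, 206 and 209 on the mutant arrays, so that the groups overlapped (log2 fold change -0.21). Pdgfb, the ligand by which endothelium recruits pericytes, stayed between 134 and 147 on all 5 arrays, and Pdgfd, a ligand of PDGFRB, was at 182 and 150 on the control arrays against 160, 142 and 135 on the mutant arrays. No ligand passed over all genes. At a limma unadjusted p under 0.05, 1 of the 4 was higher, against 5.29% of all genes, and 0 were lower, against 5.04%.

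**Figure D2:**
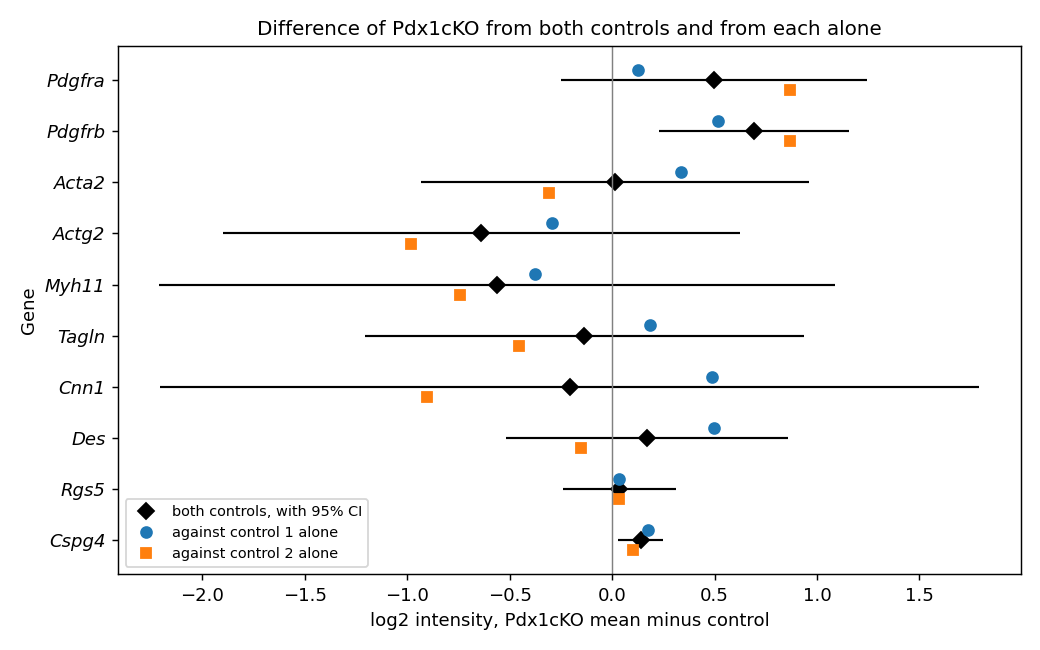
Difference in log2 intensity between the Pdx1cKO mean and both controls for each gene (black diamonds, with the 95% confidence interval from limma as lines), against control 1 alone (blue circles) and against control 2 alone (orange squares). Pdgfrb lies above 0 in all 3 forms, at 0.69, 0.52 and 0.87, whereas Acta2, Tagln, Cnn1 and Des lie above 0 against control 1 and below 0 against control 2.

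The 5 smooth muscle contractile genes did not separate the groups, and their spread within each group was wide. In each of them control 2 was the highest and Pdx1cKO 1 the lowest of the 5 arrays, which makes 5 of the 10 genes at each end. Among all genes 22.1% had control 2 as the highest array and 16.1% had Pdx1cKO 1 as the lowest. Because 4 of the 5 log2 fold changes were between -0.64 and -0.14 while all 5 confidence intervals spanned 0, no direction can be given for the group. Of the 10 genes, 7 were higher in control 2 than in control 1, against 38.6% of all genes, and 5 (Acta2, Actg2, Tagln, Cnn1 and Des) were at least 1.5 times as high there, against 3.64%.

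Myh11, the smooth muscle myosin heavy chain (probe set 10437885), had intensities of 969 and 1248 in controls 1 and 2 and 385, 953 and 1127 in Pdx1cKO 1, 2 and 3. Pdx1cKO 2 and 3 lay close to the controls, and Pdx1cKO 1 was far below every other array. The log2 fold change was -0.56 (standard error 0.574, limma adjusted p = 0.624), and without Pdx1cKO 1 it was -0.09. The SD of its log2 values among the 3 mutants was 0.833, and 0.853% of all genes had a larger one.

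Cnn1, which encodes the actin-binding calponin of differentiated smooth muscle (probe set 10583809), was at 505 and 1326 in controls 1 and 2 and at 393, 830.5 and 1093 in Pdx1cKO 1, 2 and 3. Here the controls were 2.63-fold apart, with Pdx1cKO 2 and 3 between them and Pdx1cKO 1 below both. The log2 fold change was -0.21 (standard error 0.696, 95% confidence interval -2.21 to 1.79, limma adjusted p = 0.903). Against control 1 alone the Pdx1cKO mean was 0.49 higher on the log2 scale and against control 2 alone 0.90 lower, so the choice of control turned the direction.

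Actg2, the smooth muscle gamma actin that is most abundant in visceral muscle such as that of the gut (probe set 10545707), was at 1839 and 2971 in controls 1 and 2 and at 966, 1852 and 1896 in Pdx1cKO 1, 2 and 3. Control 1, Pdx1cKO 2 and Pdx1cKO 3 were level, with control 2 above them and Pdx1cKO 1 below. Its log2 fold change, -0.64 with a standard error of 0.439 (limma adjusted p = 0.515), was the most negative of the 10, and it was -0.29 against control 1 alone and -0.98 against control 2 alone.

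Acta2, the alpha smooth muscle actin of vessels and activated stellate cells (probe set 10467124), had intensities of 2575 and 4027 in controls 1 and 2 and 2441, 3545 and 3968 in Pdx1cKO 1, 2 and 3. The 2 groups covered almost the same range. The log2 fold change was 0.01 with a 95% confidence interval of -0.93 to 0.96 (limma adjusted p = 1.00), which leaves room for a change of nearly 1 log2 either way. Tagln, which encodes transgelin, an actin-bundling protein of smooth muscle (probe set 10593123), was at 567 and 884 on the control arrays against 457, 691 and 846 on the mutant arrays in the same order, with a log2 fold change of -0.14 (limma adjusted p = 0.871). Its values kept the array order of Acta2.

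The Acta2 promoter is shown because CArG boxes are the known switch of this gene group. RefSeq promoters of GRCm38.p6 were matched for 6 of the 10 genes, Pdgfra, Acta2, Cnn1, Des, Rgs5 and Cspg4, and the 250 bases before each annotated start were searched for the CArG box, whose pattern reads the same on both strands. An exact match was found in 0 of the 6 and in 1.47% of 32851 promoters. With at most 1 C or G allowed among the 6 A/T letters in the middle, Acta2 held 2 matches and the other 5 genes none, whereas 8.59% of all promoters held a match and 0.670% held at least 2. In the Acta2 stretch (chr19:34255374-34255623, minus strand, 5′ to 3′) capitals mark the matches, which begin 84 and 34 bases before the annotated start.
Acta2: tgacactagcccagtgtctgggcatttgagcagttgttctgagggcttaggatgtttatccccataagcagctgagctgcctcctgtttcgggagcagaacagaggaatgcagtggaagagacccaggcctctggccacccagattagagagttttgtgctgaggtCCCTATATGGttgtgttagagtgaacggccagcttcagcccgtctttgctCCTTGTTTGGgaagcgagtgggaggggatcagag

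Such matches are a description of the letters and say nothing of binding in these mice. The factors that act on CArG boxes were measured on the same arrays, and both are named after their values were seen. Myocd, which encodes myocardin, was at 126 and 152 in controls 1 and 2 and at 73.7, 126 and 142 in Pdx1cKO 1, 2 and 3. Like the 5 contractile genes it was highest in control 2 and lowest in Pdx1cKO 1 (log2 fold change -0.34, limma adjusted p = 0.628). Srf, which encodes serum response factor, lay between 171 and 190 on all 5 arrays.

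Other contractile genes of smooth muscle kept much of this order. Of 14 measured, 10 were lowest in Pdx1cKO 1, against 16.1% of all genes, and 6 were highest in control 2, against 22.1%. Myl9, the regulatory light chain of smooth muscle myosin, was at 1288 and 2018 on the control arrays against 743, 1378 and 1546 in Pdx1cKO 1, 2 and 3. Lmod1, an actin nucleator of smooth muscle, was at 75.4 and 98.5 on the control arrays against 59.8, 75.4 and 75.4 on the mutant arrays. Ppp1r14a, an inhibitor of myosin phosphatase, was at 142 and 137 on the control arrays against 120 in Pdx1cKO 1 and 137 in both other mutants. The other 4 genes, Tpm1, Tpm2, Cald1 and Srf, departed from the pattern and were lowest in control 1. Tpm1, a tropomyosin that non-muscle cells also use, was at 552 and 1186 in controls 1 and 2 and at 751 to 870 in the mutants. Tpm2, another tropomyosin, was at 269 and 369 on the control arrays against 368, 324 and 384 on the mutant arrays (log2 fold change 0.18). Cald1, which encodes the actin-binding caldesmon, was at 351 and 425 on the control arrays against 386, 459 and 520 on the mutant arrays (log2 fold change 0.23). For Tpm2 and Cald1 the highest array was thus Pdx1cKO 3. Over the 14 genes the median log2 difference was -0.09 and 0 passed over all genes. At a limma unadjusted p under 0.05, 0 were lower, against 5.04% of all genes, and 0 higher, against 5.29%.

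Transcripts of the gut wall moved with the high end of this order, in control 2. Gkn2, a gastric epithelial gene, was at 3014 in control 2 and at 25.1 to 26.4 on the other 4 arrays. Gkn1, Tff1, Muc5ac, Atp4a and Atp4b, other stomach genes, also stayed near control 1 in the mutants. Ctse, Pgc, Muc6 and Gkn3, further stomach genes, were higher in every mutant than in control 1, and highest in control 2. Ctse was at 75.5 in control 1, 4466 in control 2 and 309, 408 and 183 in Pdx1cKO 1, 2 and 3. Alpi, an intestinal alkaline phosphatase, was at 1132 in control 2, 59.3 in Pdx1cKO 3 and 35.6 to 40.4 elsewhere. Fabp2, a fatty acid binding protein of enterocytes, was at 285 in control 2, 71.8 in Pdx1cKO 3, 32.6 in Pdx1cKO 2 and 25.9 and 26.6 in control 1 and Pdx1cKO 1. Lct, the lactase of the same cells, was at 138 in control 2, 82.5 in Pdx1cKO 3 and 41.0 to 50.2 elsewhere. Muc2, the mucin of goblet cells, was at 65.3 in control 2 and at 33.4 to 34.3 on the other 4 arrays, Pdx1cKO 3 included. Of the whole intestinal list, 5 of 6 genes were highest in control 2, against 22.1% of all genes. Cdx2, the intestinal master regulator, was at 36.6 on every array, an exact tie that says nothing of intestinal content.

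Genes of the nerves and pacemaker cells that lie within gut muscle were mixed. Nos1, the nitric oxide synthase of enteric neurons, was at 87.1 and 140 in controls 1 and 2 and at 64.7, 95.1 and 106 in Pdx1cKO 1, 2 and 3, the array order of Cnn1. Vip, a neuropeptide of the same cells, was at 79.7 and 122 on the control arrays against 59.8, 77.3 and 81.2 on the mutant arrays. Kit, the receptor that marks interstitial cells of Cajal, differed little, at 172 and 169 on the control arrays against 183 to 197 on the mutant arrays, and Barx1, a factor of stomach mesenchyme, was at 291 in control 1, 242 in control 2 and 190 to 207 in the mutants. Prph and Ano1 had larger gaps between the controls than Nos1, and both broke the order of Cnn1. Prph, which encodes the neuronal intermediate filament peripherin, was at 126 and 217 in controls 1 and 2 and at 296, 143 and 317 in Pdx1cKO 1, 2 and 3. Ano1, a chloride channel of interstitial cells of Cajal but not of these cells alone, was at 499.9 and 308 on the control arrays. On the mutant arrays it was at 276, 310 and 327. Of the 8 measured genes, 5 were higher in control 2 than in control 1, against 38.6% of all genes, 4 were highest in control 2, against 22.1%, and 4 were lowest in Pdx1cKO 1, against 16.1%. What part gut muscle had in the contractile values was not tested. Without control 2 the log2 fold changes of the 5 contractile members were between -0.38 and 0.49, and 0 of them had an unadjusted p under 0.05.

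**Figure D3:**
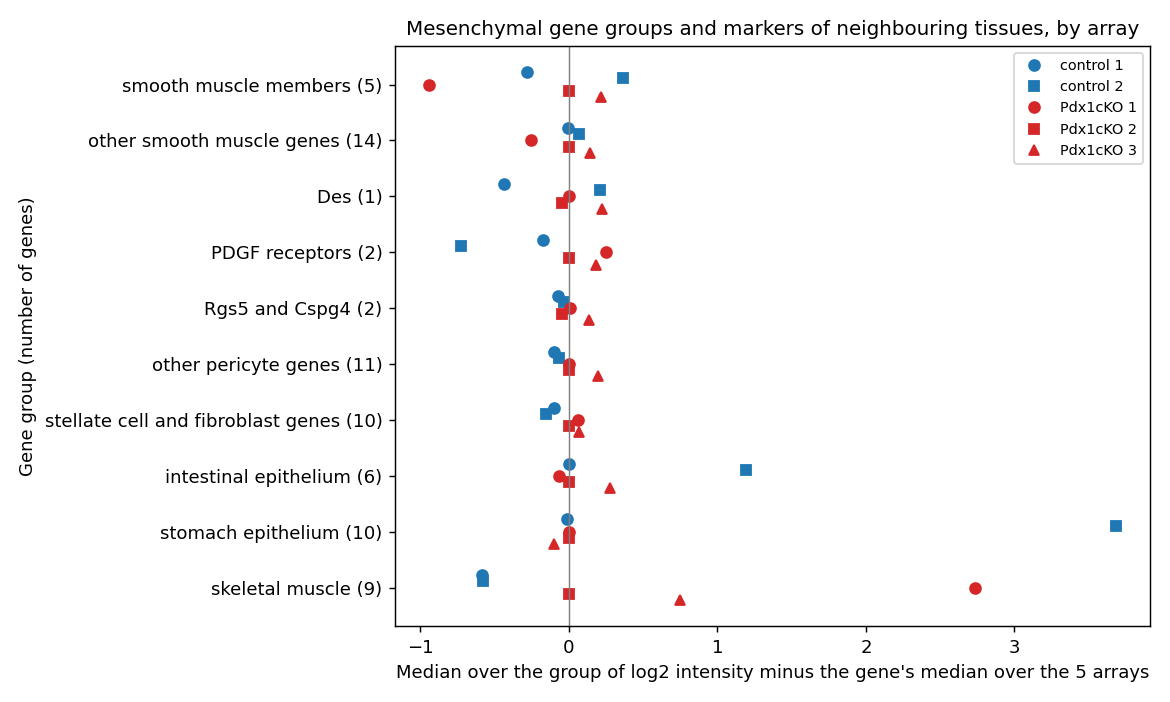
For each gene group, the median over its genes of log2 intensity minus that gene's median over the 5 arrays, with controls in blue, Pdx1cKO in red and the symbol giving the replicate. For the 5 smooth muscle members Pdx1cKO 1 is lowest at -0.94 and control 2 highest at 0.37, for the PDGF receptors control 2 is lowest at -0.72, and control 2 stands apart for stomach and Pdx1cKO 1 for skeletal muscle genes.

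Des, the intermediate filament gene of every muscle type and of quiescent stellate cells (probe set 10347583), did not share the low value of the contractile genes in Pdx1cKO 1. Its intensity was 633 and 994 in controls 1 and 2 and 858, 831 and 1001 in Pdx1cKO 1, 2 and 3. Control 1 was the lowest array, and the other 4 lay close together. The log2 fold change was 0.17 (standard error 0.240, limma adjusted p = 0.709), 0.50 against control 1 alone and -0.15 against control 2 alone.

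Skeletal muscle also makes desmin, and its transcripts were highest in the array where Des and the contractile genes parted. Acta1, the skeletal muscle actin, was at 87.7 and 106 in controls 1 and 2 against 2373, 259 and 633 in Pdx1cKO 1, 2 and 3, and Ckm, muscle creatine kinase, at 169 and 232 on the control arrays against 2009, 302 and 724 on the mutant arrays. Myh8, the perinatal myosin heavy chain, was at 57.7 and 45.5 on the control arrays against 1234, 137 and 381 on the mutant arrays. Of 9 skeletal muscle genes, 8 were highest in Pdx1cKO 1, against 1617 of all 19938 genes. The same 8 lay above both controls in all 3 mutants, against 12.0% of all genes. The median log2 difference of the 9 was 1.75, and 0 passed over all genes. The part of skeletal muscle transcripts in the Des value was not tested. Acta1 is a close paralog of Acta2 and Actg2, and whether their probes read it in part was not tested.

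Pdx1cKO 1 differed from the other mutants by gene rather than as a whole. Its log2 difference from the mean of Pdx1cKO 2 and 3 was -1.43 for Myh11, -1.28 for Cnn1, -0.96 for Actg2, -0.74 for Tagln and -0.62 for Acta2. For Des, Rgs5 and Cspg4 the same difference was -0.09, -0.05 and -0.02. For the PDGF receptors it was positive, at 0.23 for Pdgfrb and 0.08 for Pdgfra. The mutant with the lowest contractile values thus had PDGF receptor values as high as the others, and of the controls, control 2 had the higher contractile and the lower receptor values.

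Cspg4 and Rgs5, the members grouped here as pericyte markers, differed little between the groups, unlike Pdgfrb. Cspg4, which encodes the proteoglycan NG2 of pericytes (probe set 10585588), was at 112 and 118 in controls 1 and 2 and at 125, 124 and 131 in Pdx1cKO 1, 2 and 3. All 3 mutants were above both controls, but by little, with a log2 fold change of 0.14 (standard error 0.0376, 95% confidence interval 0.03 to 0.25), or 1.10-fold. Its limma adjusted p was 0.372, its unadjusted p 0.0243 and its exact permutation p 0.1. Rgs5, a regulator of G protein signalling in pericytes (probe set 10351455), had the value 110.3 in both controls and in Pdx1cKO 1, and 104 and 126 in Pdx1cKO 2 and 3. The 3 equal values are exact ties, which 67.7% of all probe sets hold between some arrays, so the control SD of 0 is no measure of the spread between mice. Its log2 fold change was 0.03 (95% confidence interval -0.24 to 0.31). Equal values of Lmod1, Ppp1r14a, Cdx2, Vim, Lrat and Kdr on several arrays are exact ties too.

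The other pericyte genes were mixed. Of 11 measured, 5 had all 3 Pdx1cKO arrays above both controls, against 12.0% of all genes, and 1 had them all below, against 11.7%. Abcc9, a potassium channel subunit of pericytes and vascular muscle, was at 291 and 271 on the control arrays against 378, 359 and 411 on the mutant arrays (log2 fold change 0.44, standard error 0.0757, limma adjusted p = 0.244). Notch3, a receptor needed by vascular smooth muscle, was at 129 and 118 on the control arrays against 185, 151 and 173 in Pdx1cKO 1, 2 and 3, the array order of Pdgfrb, with a log2 fold change of 0.46 (limma adjusted p = 0.334). Mcam, an adhesion molecule of pericytes and endothelium, was at 415 and 524 on the control arrays against 561, 568 and 728 on the mutant arrays. Gucy1b1, a subunit of the nitric oxide receptor, overlapped between the groups, at 58.0 and 96.4 on the control arrays against 80.8, 91.0 and 109 on the mutant arrays. Anpep, an aminopeptidase that epithelial cells also make, was the gene below, at 1910 and 868 on the control arrays against 629 to 675 on the mutant arrays. Over the list the median log2 difference was 0.28, 2 genes were higher at an unadjusted p under 0.05, against 5.29% of all genes, and 0 passed over all genes.

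Several genes of stellate cells and fibroblasts also had higher values in the mutants. Lum, which encodes the collagen-binding proteoglycan lumican, was at 589 and 586 on the control arrays against 901, 819 and 1043 in Pdx1cKO 1, 2 and 3 (log2 fold change 0.64, standard error 0.119, limma adjusted p = 0.271). The controls were almost equal here, and all mutants lay above them. Lox, a collagen cross-linking enzyme, was at 825 and 670.5 on the control arrays against 1141, 1037 and 1214 on the mutant arrays (log2 fold change 0.60, limma adjusted p = 0.298). Postn, which encodes the matrix protein periostin, was at 2098 and 2047 on the control arrays against 2704, 2285 and 2498 on the mutant arrays (log2 fold change 0.26, limma adjusted p = 0.435). Vim, the intermediate filament gene of mesenchyme, was at 5191 and 4049 on the control arrays against 5191 to 5618 on the mutant arrays. Dcn, the abundant fibroblast proteoglycan decorin, differed less, with 4966 and 3512 on the control arrays against 4761 to 5129 on the mutant arrays. Lrat, which makes the retinyl esters stored by quiescent stellate cells, was at 38.9 and 50.2 on the control arrays against 50.2, 67.0 and 51.3 on the mutant arrays. Of 10 measured genes, 4 had all mutants above both controls, against 12.0% of all genes, and 0 had them below, against 11.7%. At an unadjusted p under 0.05, 3 were higher, against 5.29%, 0 passed over all genes, and the median log2 difference was 0.22.

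Control 2 was the lowest of the 5 arrays for both PDGF receptors, for 7 of the 10 stellate cell and fibroblast genes and for 4 of the 11 pericyte genes, against 25.9% of all genes. Within the control group it thus had the highest smooth muscle transcripts and low receptor and fibroblast transcripts. Against control 1 alone the median log2 difference was 0.16 for the stellate cell and fibroblast list and 0.37 for the pericyte list. Against control 2 alone it was 0.26 and 0.14.

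**Figure D4:**
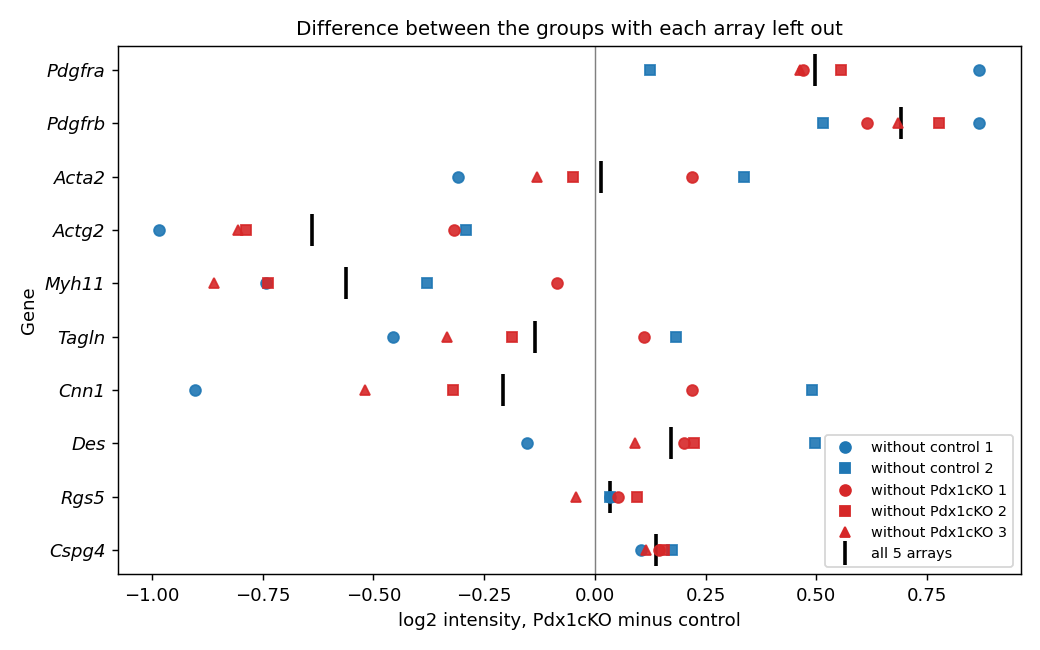
Log2 difference between Pdx1cKO and control for each of the 10 genes with all 5 arrays (black bars) and with 1 array left out (blue, a control; red, a Pdx1cKO mouse; the symbol gives the replicate left out). Pdgfrb stays between 0.52 and 0.87 and Cspg4 between 0.10 and 0.17, while Cnn1 runs from -0.90 without control 1 to 0.49 without control 2.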

How the data were processed

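Total RNA of 5 neonatal pancreata was measured on Affymetrix Mouse Gene 1.0 ST arrays, 1 array per sample. The authors analysed the scans with GeneSpring GX 12.1 and deposited linear intensities. How they corrected background, normalized arrays and summarised probes is not given in the sources used here, and detection calls were not used here. Median intensities of 61.0 to 61.9 show that the arrays had been scaled to each other.

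Intensities were put on the log2 scale without a pseudocount. Of 28853 probe sets, 21789 carry 1 gene symbol in the platform annotation, 1621 carry several and 5443 are unnamed here. Those with 1 symbol were averaged into 19938 genes, of whose probe sets 21698 matched RefSeq by Entrez gene. Groups were taken from the sample titles and compared with limma 3.58.1 (lmFit and eBayes, prior degrees of freedom 0.680) in R 4.3.3, with Benjamini-Hochberg adjustment over all genes at 0.05. Python 3.11.15 with pandas 2.3.3 prepared the tables. The p-values set the group difference against the spread within groups over these 5 arrays. That spread takes in tissue content and exact ties as well as mice, and sex was unbalanced between the groups. The fit was tested on simulated data with normal noise drawn independently for each gene. There it recovered 65.7% of log2 changes of 1 and 98.4% of those of 4, with 6 false among 173 calls. The simulation left out ties and differences in tissue content between arrays. With the measured values the fit called 0 genes, so that recovery does not carry over to these arrays.

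The 10 genes and the 12 further marker lists, written from general knowledge, were chosen with earlier results of these data known. By rule the text names all 10 genes, the PDGF ligands, in each list of mesenchymal and gut wall genes the 3 with the smallest p and the 3 with the largest gap between the controls, and defining markers of other tissues. The same ranks were fixed for the lists of other tissues, of which the text names only some. Myocd, Srf, Cdx2 and the stomach genes other than Gkn2 were named after their values were seen. Listed genes without a value of their own in the tables used were not analysed here. Alternatives were quantile normalization, median scaling, 2 filters on dim genes, the brightest or every probe set, trend and robust eBayes, array weights, the methods' t-test, log2 of the value plus 16, the replicate number as a block, each array left out, and a sex covariate added after the data were seen.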

Additional observations from a re-analysis of the deposited data

How the results depend on the processing

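Of 170 log2 differences of the 10 genes under 17 alternatives each, 153 kept their direction and their side of the threshold, 16 turned direction and 1 passed. Pdgfra, Pdgfrb, Actg2 and Cspg4 never turned, with Pdgfrb at 0.52 to 0.87 and adjusted p of 0.10 to 0.925. Acta2 was at -0.0128 with median scaling, -0.0884 with array weights and -0.13 with the replicate block, which gave Rgs5 -0.0429. With the sex covariate, which rests on Pdx1cKO 3 against the controls, Tagln was at 0.26, Myh11 at 0.0359 and Cnn1 at 0.42. Over the arrays left out, Acta2 ran from -0.31 to 0.34, Tagln from -0.46 to 0.18, Des from -0.15 to 0.50, Cnn1 from -0.90 to 0.49, Rgs5 from -0.0429 to 0.0952 and Pdgfra from 0.13 to 0.87, passing without control 1 (limma adjusted p = 0.0493, against 0.0493 to 0.925 over its alternatives). Leaving out a control gave 1783 lower and 1604 higher genes (control 1) or 2072 and 995 (control 2), against 0 of each with all arrays, and leaving out a mutant 0. The range over arrays left out was 0 to 2072 lower and 0 to 1604 higher, for the 10 genes 0 to 1 higher, and for the other lists 0 to 13 lower and 0 to 1 higher. After Benjamini-Hochberg adjustment the methods' t-test gave 7 genes lower and 3 higher. The genes higher at an unadjusted p, 2 of the 10 with all arrays, numbered 1 with quantile normalization, 0 with array weights, 1 with the replicate block and 0 to 2 over the arrays left out, with 0 without Pdx1cKO 3. The replicate block, which leaves Pdx1cKO 3 without a partner and so drops it, gave 2 lower at an unadjusted p. The labels do not say that the shared numbers are a pairing. The gap between controls 1 and 2 and that between Pdx1cKO 1 and 2 correlated at -0.03 over probe sets. That value cannot show whether arrays were paired, because they also differed in tissue content. Array weights were 0.210 for each control. The causes were not tested.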

Other observations

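Endothelial genes, whose cells pericytes cover, had a median log2 difference of 0.34 over 6 genes, with 0 passing over all genes. At a limma unadjusted p under 0.05, 2 were higher, against 5.29% of all genes. Cdh5, the cadherin of endothelial junctions, was at 489 and 426 in controls 1 and 2 and at 573, 564 and 668 in Pdx1cKO 1, 2 and 3. Kdr, the main receptor of vascular endothelial growth factor, was at 256 and 148 on the control arrays against 256, 256 and 305 on the mutant arrays. All 6 were lowest in control 2, as were both PDGF receptors, against 25.9% of all genes.

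Only 2 of 19938 genes, 0.0100%, were more than 1 log2 lower in Pdx1cKO 1 than on every other array. They were Myh11 and Grem1, both named for this after their values were seen. Grem1, which encodes a secreted antagonist of bone morphogenetic proteins, was at 281 and 384 in controls 1 and 2 and at 122, 272 and 306 in Pdx1cKO 1, 2 and 3, so that, like the contractile genes, it was highest in control 2.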
